A study of Mus musculus with 13 samples.

Results

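Canonical Wnt signalling is read out inside a cell by 2 sets of genes that are followed here, the TCF/LEF transcription factors and the feedback genes that these factors induce. The 9 genes *Axin2*, *Lef1*, *Tcf7*, *Tcf7l1*, *Tcf7l2*, *Nkd1*, *Nkd2*, *Sp5* and *Apcdd1* were taken by symbol from 32793 genes measured by bulk RNA sequencing of the embryonic mouse foregut and trachea. In mutants, Foxg1Cre;Gli3TFlag/+, Cre switched on a Flag-tagged, truncated Gli3 that acts as a constitutive repressor of Hedgehog target genes. Controls carried the same Gli3TFlag/+ allele without Cre, so that both genotypes shared the transgene. There were 3 mutant and 3 control foreguts at E10.5, and 4 mutant and 3 control tracheas at E11.5, each from a separate embryo dissection. The study's methods give 3 replicates a condition and do not say which 3 of the 4 mutant tracheas they mean, so all 4 were used. The strain is labelled C57BL/6, whereas the study's methods describe an outbred background. *Foxg1Cre* recombines in the foregut mesendoderm, which holds both the epithelium and the surrounding mesenchyme, so neither the driver nor the dissection isolated 1 of these layers.

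When a Wnt ligand engages a Frizzled receptor and an Lrp co-receptor, the complex that destroys β-catenin is disabled, and β-catenin enters the nucleus, where it binds TCF/LEF factors and turns them from repressors into activators. Several of the genes that are then induced encode inhibitors of the pathway, which makes their RNA a customary reading of recent signalling. R-spondins raise this signalling by keeping Frizzled receptors on the cell surface, and in the developing mouse foregut Wnt/β-catenin activity is known for the specification of the respiratory epithelium and for the formation of tracheal cartilage. The study asked how a repressive form of Gli3 alters the tracheal mesenchyme, and *Rspo2* was among the genes it followed. The comparisons below ask whether the genes downstream of β-catenin differed between mutants and controls at each stage, and between stages.

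*Gli3* separated the genotypes at both stages, at 329.6 to 359 CPM (counts scaled to library size) in mutants and 255 to 289 in controls at E10.5, and at 369 to 426 in mutants and 189 to 263 in controls at E11.5. Reads of the transgene and of the endogenous gene were not separated. The deposited counts summed to 9.65 to 17.99 M a library. None of the 12 epithelial or 10 mesenchymal markers of the foregut was at 0 in any library. Cardiac RNA varied widely, with a summed level of 16 cardiomyocyte genes of 160.58 to 5299.26 TPM (RSEM's measure scaled to transcript length and library) in mutants and 79.75 to 679.66 in controls. TPM is a share of each library's total, and 3 entries together held 31.6 to 43.6% of it, depending on the library. The TPM of all other genes therefore depended in part on these 3. *Xist*, which marks females, was above 100 CPM in 2 of 3 mutants and 0 of 3 controls at E10.5, and in 2 of 4 mutants and 1 of 3 controls at E11.5, so that sex and genotype were nearly the same split at E10.5. Control trachea replicate 1 stood apart from the other controls of its stage, with 335 CPM of *Rgs5*, a pericyte gene, against 73.4 and 75.3.

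The promoters of the genes on which the results turn are shown first, because TCF/LEF factors are known to act through short motifs in the DNA of their targets. The windows come from RefSeq (GRCm38.p6) and run from 250 bases before to 50 bases after an annotated start site, in the direction of the gene. A window was found for 8 of the 9 genes, 13 windows in all. Each was searched on both strands for the TCF/LEF motif in its form CTTTGAT, in the close form CTTTGAA, and in a pair of forms with a further T, namely CTTTGTT as well as CTTTGTA, and capitals mark a match. The *Sp5* window lies at chr2:70474673-70474972 (+), the *Lef1* window, at a start site inside the gene, at chr3:131156044-131156343 (+), and the *Axin2* window at chr11:108920099-108920398 (+). The *Nkd1* window, at chr8:88527383-88527682 (+), also lies inside the gene, which starts at 88521354 in the GENCODE annotation. No window at that start of *Nkd1* was searched.
Sp5 promoter: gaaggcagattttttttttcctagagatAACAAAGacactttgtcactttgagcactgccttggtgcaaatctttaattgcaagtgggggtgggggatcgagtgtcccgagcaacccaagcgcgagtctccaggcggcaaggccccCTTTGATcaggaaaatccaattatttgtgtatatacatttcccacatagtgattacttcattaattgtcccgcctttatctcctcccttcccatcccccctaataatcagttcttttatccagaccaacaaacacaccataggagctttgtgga
Lef1 internal promoter: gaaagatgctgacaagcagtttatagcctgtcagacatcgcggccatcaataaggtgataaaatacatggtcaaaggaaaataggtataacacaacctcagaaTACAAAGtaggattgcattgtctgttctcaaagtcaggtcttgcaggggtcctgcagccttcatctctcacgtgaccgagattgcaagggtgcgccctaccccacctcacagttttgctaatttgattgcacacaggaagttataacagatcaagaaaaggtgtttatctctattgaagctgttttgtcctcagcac
Nkd1 promoter: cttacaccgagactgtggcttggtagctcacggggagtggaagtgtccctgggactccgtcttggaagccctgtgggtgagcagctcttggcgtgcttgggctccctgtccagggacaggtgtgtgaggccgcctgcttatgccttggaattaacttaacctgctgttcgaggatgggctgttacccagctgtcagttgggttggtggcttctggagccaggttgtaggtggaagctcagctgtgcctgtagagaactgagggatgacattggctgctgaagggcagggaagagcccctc
Axin2 promoter: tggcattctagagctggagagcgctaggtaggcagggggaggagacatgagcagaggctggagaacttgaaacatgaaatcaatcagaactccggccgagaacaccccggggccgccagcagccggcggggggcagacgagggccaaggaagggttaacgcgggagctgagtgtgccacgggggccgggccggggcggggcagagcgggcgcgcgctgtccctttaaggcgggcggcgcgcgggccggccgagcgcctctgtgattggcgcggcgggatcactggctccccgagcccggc
*Sp5* held 2 matches, CTTTGTT on the opposite strand at -222 and CTTTGAT on the strand of the gene at -104, both counted from the start site to the first base of the match as printed. The *Lef1* window shown held CTTTGTA on the opposite strand at -147, while the other 3 *Lef1* windows held none. A *Tcf7l2* window at chr19:55895071-55895370 (+), also at a start site inside the gene, held CTTTGTT at -14. Matches were therefore present in 3 of the 13 windows, and 16.88% of 32851 RefSeq promoters of this length held at least 1. No window held GACCACCCA, the motif bound by GLI factors, which 0.25% of all promoters held. A match is a description of the letters, and its absence from a window says nothing of sites elsewhere in the gene.

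The 9 genes were expressed at very different levels. On the TPM scale, *Tcf7l1* and *Tcf7l2* were the most abundant, with a median over the 13 libraries of 40.5 and 39.7 TPM, followed by *Tcf7* at 29.4, *Axin2* at 17.9, *Lef1* at 17.1, *Apcdd1* at 15.4, *Nkd1* at 7.63, *Nkd2* at 6.67 and *Sp5* at 0.640. *Sp5* rested on 1 to 28 reads a library, and the others on 95 reads or more. Each gene is annotated as protein coding in GRCm38. *Lef1* (chr3:131110471-131224356), *Axin2* (chr11:108920349-108950783), *Tcf7* (chr11:52252371-52283014) and *Tcf7l1* (chr6:72626378-72789254) have exons that overlap the span of an annotated antisense gene. Whether exons of the pair overlap was not examined. The library kit does not mark strand, so strand could not separate reads of the pair there. Only the antisense gene at *Tcf7l1*, *Gm15401*, was among the genes measured. *Tcf7* exons also overlap the span of *Gm26551*, a lincRNA on the same strand. *Nkd1* (chr8:88521354-88594884) and *Nkd2* (chr13:73818534-73847631) have no such overlap.

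**Figure D1:**
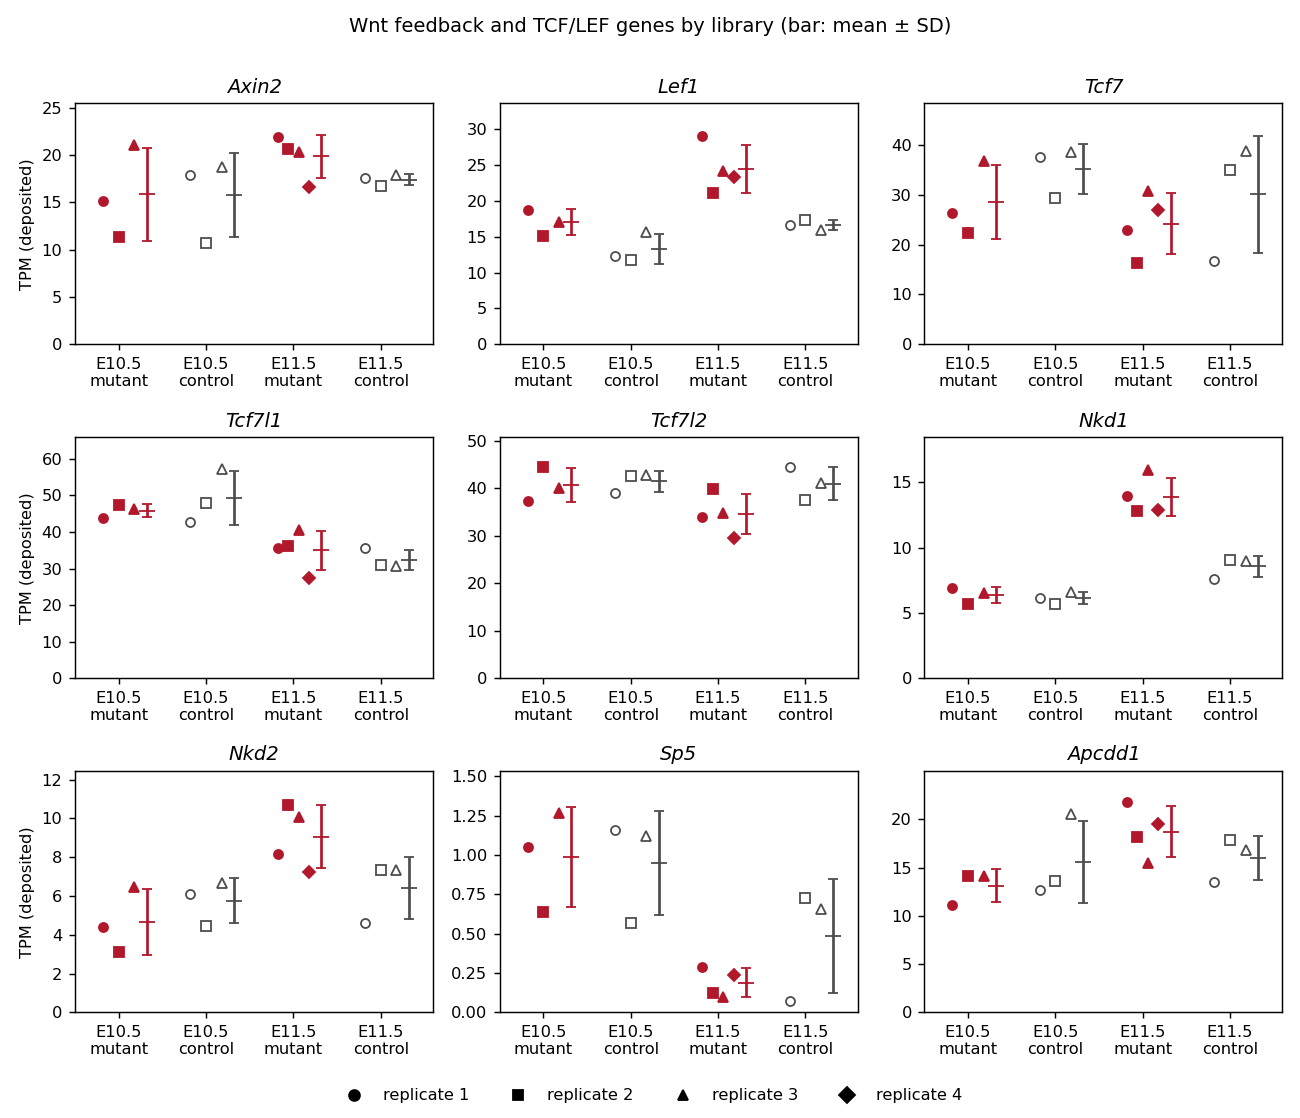
Deposited TPM of the 9 genes in each of the 13 libraries (points, shaped by replicate), with the mean and SD of each group beside them; filled red marks mutants and open grey marks controls. *Lef1* and *Nkd1* were above every control in all 4 mutant tracheas, whereas the E10.5 groups overlapped for every gene except in the CPM of *Lef1*.

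At E10.5 none of the 9 genes passed the test between mutant and control foreguts, and *Lef1* came closest. *Lef1*, an activator among the TCF/LEF factors and itself a Wnt target, had 42.0, 34.3 and 37.3 CPM in mutants, against 28.1, 28.1 and 31.8 CPM in controls. All 3 mutants lay above all 3 controls. The log2 fold change was 0.37 (standard error 0.1004, 95% interval 0.13 to 0.60), with an unadjusted p of 0.00676 and an adjusted p of 0.119 (edgeR quasi-likelihood test, Benjamini-Hochberg over 15295 genes). Of all genes tested, 0.719% had an adjusted p under 0.05 at this stage, against 0 of the 9. Groups failed to overlap in CPM for 1 of the 9 genes, and for 25% of all genes tested. At an unadjusted p under 0.05 the count was 1 of 9, against 18.8% of all genes. On the TPM scale the lowest mutant, at 15.14 TPM, lay below the highest control, at 15.69 TPM.

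None of the other TCF/LEF factors passed the test at E10.5, and *Tcf7*, with the widest difference of the 3, was on average lower in mutants. *Tcf7l2*, which encodes a TCF factor that can activate or repress, had 79.5, 90.3 and 79.3 CPM in mutants, against 77.1, 93.1 and 78.9 CPM in controls. The interval of its log2 fold change ran from -0.21 to 0.21. *Tcf7l1*, known mainly as a repressor, had 82.1, 87.4 and 81.6 CPM in mutants, against 79.9, 92.3 and 94.6 CPM in controls (interval -0.27 to 0.09). *Tcf7*, whose short isoforms lack the β-catenin binding part, had 26.1, 21.2 and 24.8 CPM in mutants, against 33.9, 24.9 and 30.1 CPM in controls. Its groups overlapped (log2 fold change -0.30, standard error 0.135, adjusted p = 0.279, edgeR).

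Among the feedback inhibitors, *Axin2*, the inducible scaffold of the destruction complex, had 33.1, 23.7 and 40.8 CPM in E10.5 mutants, against 40.0, 24.9 and 37.4 CPM in controls. The spread within each genotype was far larger than the difference between them, at a log2 fold change of -0.07 (standard error 0.230, interval -0.60 to 0.47). *Nkd1* and *Nkd2* are the mouse relatives of fly naked cuticle and bind Dishevelled. *Nkd1* had 19.8, 15.4 and 17.6 CPM in mutants, against 16.8, 16.6 and 16.5 CPM in controls, so that the controls lay inside the range of the mutants (log2 fold change 0.08, interval -0.20 to 0.36). *Nkd2* had 8.59, 6.26 and 12.9 CPM in mutants, against 12.9, 9.56 and 12.2 CPM in controls (log2 fold change -0.32, interval -0.92 to 0.29). *Apcdd1*, a membrane protein that binds Wnt and its co-receptor, had 9.25, 12.92 and 11.496 CPM in mutants, against 11.8, 9.50 and 16.2 CPM in controls. *Sp5*, a zinc finger factor induced by Wnt, was at 24, 13 and 28 counts in mutants, against 26, 14 and 25 counts in controls. The adjusted p of these 5 genes lay between 0.556 and 0.933 (edgeR).

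At E11.5, *Nkd1* and *Lef1* rose in mutant tracheas, and none of the 8 genes that could be tested was called lower. *Nkd1* had 37.3, 32.6, 41.6 and 37.8 CPM in mutants, against 18.7, 23.3 and 24.0 CPM in controls. Every mutant lay above every control. The log2 fold change was 0.76, or 1.69-fold (standard error 0.137, interval 0.46 to 1.06), with an adjusted p of 0.0219 (edgeR, over 15376 genes). *Lef1* had 63.1, 44.0, 50.6 and 56.1 CPM in mutants, against 31.7, 36.5 and 34.5 CPM in controls. These groups too were apart (log2 fold change 0.64, or 1.56-fold, standard error 0.134, interval 0.35 to 0.94, adjusted p = 0.0332, edgeR). The 2 genes make up 2 of the 8 that could be tested, and 1.81% of all genes tested were called higher, with 0.689% called lower. *Sp5* did not pass the filter on low counts.

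*Nkd2* and *Axin2* were higher in every mutant than in every control on the CPM scale but did not pass the test. *Nkd2* had 16.2, 20.2, 19.5 and 15.9 CPM in mutants, against 8.04, 13.7 and 14.0 CPM in controls (log2 fold change 0.59, standard error 0.207, adjusted p = 0.159, edgeR). The low control, at 8.04 CPM, is replicate 1, the library with the high *Rgs5*. Over the 7 fits that each left out 1 library, the log2 fold change of *Nkd2* ran from 0.37 to 0.72. *Axin2* had 50.7, 48.7, 49.8 and 42.2 CPM in mutants, against 38.3, 39.6 and 42.0 CPM in controls (log2 fold change 0.26, standard error 0.106, adjusted p = 0.218, edgeR). Both overlapped on the TPM scale, at 7.26 TPM in the lowest mutant and 7.35 TPM in the highest control for *Nkd2*, and at 16.64 and 17.89 TPM for *Axin2*. Mutant replicate 4 was the lowest mutant for both. It was also the library with the largest share of TPM, 43.6%, in the 3 entries described above, whose part in the overlap was not tested. In all, 4 of the 8 genes had groups apart in the upward direction in CPM, which was so for 9.17% of all genes tested. These 4 were also those with an unadjusted p under 0.05, against 19.1% of all genes in either direction.

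The remaining genes overlapped between genotypes at E11.5. *Apcdd1* had 16.8, 15.0, 13.9 and 19.0 CPM in mutants, against 11.35, 12.96 and 14.62 CPM in controls (log2 fold change 0.31, interval -0.06 to 0.68). *Tcf7l1* had 63.0, 60.5, 69.2 and 53.4 CPM in mutants, against 57.1, 52.6 and 53.7 CPM in controls (interval -0.06 to 0.42). *Tcf7l2* had 72.2, 79.8, 72.4 and 71.1 CPM in mutants, against 86.2, 78.6 and 83.7 CPM in controls (interval -0.37 to 0.04). For each of the 3 a single library made the groups meet. *Sp5*, the weakest of the genes, had 5, 2, 2 and 3 counts in mutants, against 1, 13 and 12 counts in controls, which overlap through control replicate 1. *Tcf7* was at 22.85, 19.2, 27.3 and 23.0 CPM in mutants, against 15.1, 32.1 and 32.5 CPM in controls. The low control is again replicate 1, the library with the high *Rgs5*, and without it the log2 fold change of *Tcf7* was -0.49 (adjusted p = 0.0765, edgeR) in place of -0.20 (adjusted p = 0.676).

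**Figure D2:**
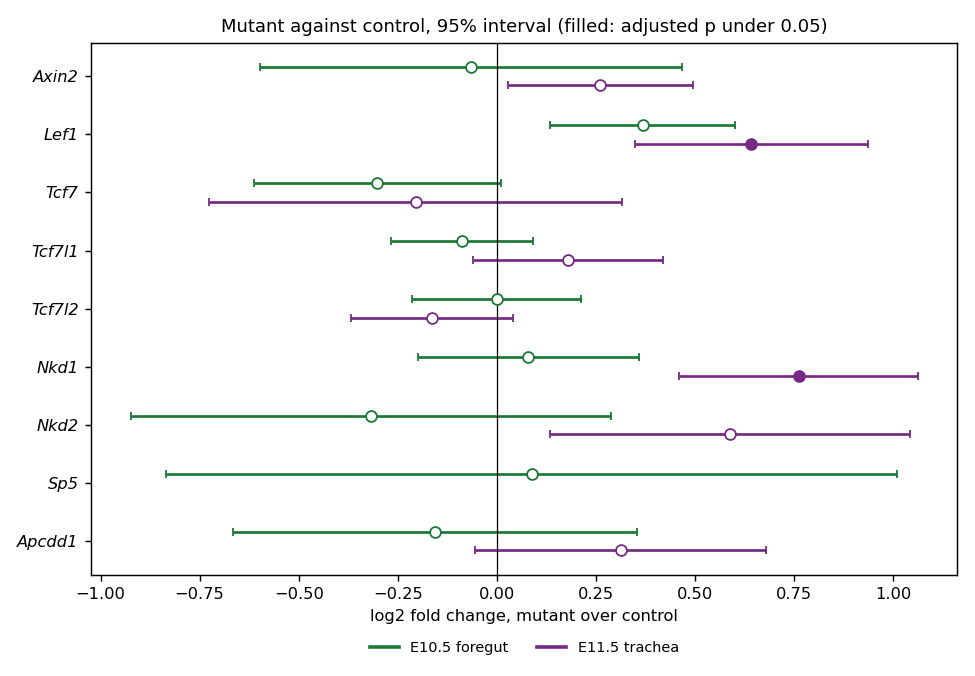
Log2 fold change of each gene in mutants over controls (points) with its 95% interval (lines), for E10.5 foregut and E11.5 trachea; filled points had an adjusted p under 0.05. Only *Nkd1* and *Lef1* at E11.5 are filled, at 0.76 and 0.64, and *Sp5* has no E11.5 value because it did not pass the filter on low counts.

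The 2 calls at E11.5 were close to the threshold. Without control replicate 1, which stood apart, or mutant replicate 2, which had the most cardiac RNA, both genes were still called. Neither was called without control replicate 2 or 3 or without mutant replicate 1 or 3, and *Nkd1* alone was called without mutant replicate 4. The adjusted p then lay between 0.0171 and 0.0692 for *Nkd1* and between 0.0253 and 0.139 for *Lef1* over the 7 fits that each left out 1 library (edgeR), while the log2 fold change stayed between 0.65 and 0.83 for *Nkd1* and between 0.55 and 0.72 for *Lef1*. Limma on log2(TPM + 1) called neither, at an adjusted p of 0.0700 for *Nkd1* and 0.101 for *Lef1*.

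Markers of the foregut epithelium were higher in the same mutant libraries. Of 12 such markers, 9 were called higher in mutants at E11.5, and their summed level was 353.93, 519.95, 361.92 and 290.43 TPM in mutants, against 253.68, 183.59 and 200.27 TPM in controls. At E10.5, where no gene of the Wnt set was called, 0 of 12 were called, although all 12 had fold changes above 0. Their median was 0.36 on the log2 scale, against 0.03 for all genes. The sums at E10.5 were 574.7, 440.32 and 531.15 TPM in mutants, against 364.46, 455.9 and 422.13 TPM in controls. In bulk tissue a change in the number of cells of a type and a change in the RNA per cell cannot be told apart. Markers of other cell types also differed at E11.5. Of 7 smooth muscle markers, 2 were called higher, with sums of 236.63 to 438.26 TPM in mutants and 189.51 to 294.2 TPM in controls. Of 8 endothelial markers, 1 was called higher, with sums of 163.2 to 214.38 TPM in mutants and 130.98 to 160.55 TPM in controls. All 8 erythroid and all 15 cardiomyocyte markers tested had fold changes above 0, although 0 were called, with cardiomyocyte sums of 615.98 to 5299.26 TPM in mutants and 89.42 to 679.66 TPM in controls. *Foxf1*, a factor of the splanchnic mesenchyme, and *Sox9*, of cartilage progenitors, were the genes called lower in their lists, 1 of 10 and 1 of 5. The mutant with the highest epithelial and cardiomyocyte sums, replicate 2, had 21.15 TPM of *Lef1* and 12.81 TPM of *Nkd1*, the lowest of the 4, while replicate 4 had 12.9 TPM of *Nkd1*. The part of any of these cell types in the rise of *Lef1* and *Nkd1* was not tested.

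**Figure D3:**
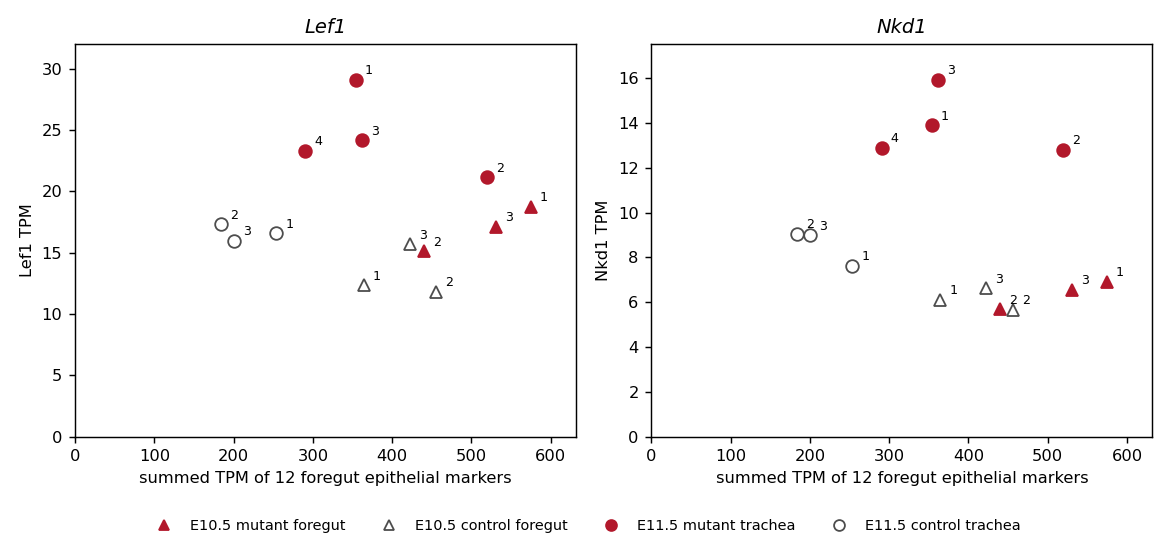
TPM of *Lef1* and *Nkd1* (vertical) against the summed TPM of 12 foregut epithelial markers (horizontal) in the 13 libraries, numbered by replicate. Mutant tracheas lie above control tracheas on both axes, and mutant replicate 2, at 519.95 TPM of epithelial markers, lies lowest of the 4 mutants in both panels.

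A change in the genotype effect from stage to stage was tested in 1 fit of the 13 libraries. The difference was 0.69 on the log2 scale for *Nkd1* (standard error 0.180, interval 0.30 to 1.07, unadjusted p 0.00186, adjusted p = 0.172) and 0.91 for *Nkd2* (standard error 0.349, interval 0.16 to 1.66, unadjusted p 0.0206, adjusted p = 0.265), both by edgeR. These are the 2 of 9 genes with an unadjusted p under 0.05, against 14.2% of all genes, and 0 of 9 passed after adjustment, against 0.0248% of all genes. When a library was left out, the difference ran from 0.58 to 0.78 for *Nkd1* and from 0.70 to 1.24 for *Nkd2*. For *Lef1* the difference was 0.28 (interval -0.10 to 0.66), so that an equal effect at both stages and a larger one at E11.5 are both within its error. With DESeq2 in place of edgeR the difference of *Nkd1* had an adjusted p of 0.0315, the smallest over its alternatives, which otherwise reached 0.396.

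The stages themselves were compared within each genotype. Stage, dissected tissue and set of libraries changed together in these data and cannot be told apart. TPM, which is scaled within each library and so depends on the share of its most abundant RNAs, is given for the levels. *Tcf7l1* fell with stage in both genotypes and was the clearest case in controls. It was at 35.61, 30.94 and 30.64 TPM in E11.5 controls, against 42.78, 47.98 and 57.33 TPM in E10.5 controls (log2 fold change -0.66, standard error 0.102, adjusted p = 0.000846, edgeR). In mutants it was at 35.65, 36.24, 40.48 and 27.44 TPM at E11.5, against 43.8, 47.42 and 46.29 TPM at E10.5 (log2 fold change -0.39, standard error 0.0945, adjusted p = 0.0149, edgeR). The call in mutants was lost with limma on log2(TPM + 1), at an adjusted p of 0.0710, on log2(TPM + 0.1), at 0.0716, and without E10.5 mutant replicate 2, at 0.0541 (edgeR). No E11.5 library reached the lowest E10.5 library of its genotype. The difference between these 2 changes did not pass the test (0.27, interval -0.03 to 0.57, adjusted p = 0.392, edgeR).

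*Nkd1* rose with stage in both genotypes. It was at 13.91, 12.81, 15.94 and 12.9 TPM in E11.5 mutants, against 6.91, 5.69 and 6.55 TPM in mutants at E10.5 (log2 fold change 1.14, standard error 0.125, adjusted p = 7.55e-05, edgeR). In controls it was at 7.63, 9.06 and 9 TPM at E11.5, against 6.11, 5.66 and 6.62 TPM at E10.5 (log2 fold change 0.45, standard error 0.132, adjusted p = 0.0263, edgeR). The call in controls was lost without any 1 of 5 of the 6 control libraries, at adjusted p-values of 0.0725 to 0.0979, and held without E11.5 control replicate 1. *Tcf7l1* and *Nkd1* were the genes called in controls, 1 of 9 lower and 1 of 9 higher, against 10.1% of all genes called lower and 11.2% called higher.

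In mutants 4 of the 9 genes were called higher and 2 lower at E11.5, against 8.12% of all genes called higher and 7.4% called lower. *Lef1* was at 29.11, 21.15, 24.16 and 23.31 TPM in E11.5 mutants, against 18.75, 15.14 and 17.12 TPM in mutants at E10.5 (log2 fold change 0.55, standard error 0.121, adjusted p = 0.00880, edgeR). *Nkd2* was at 8.16, 10.71, 10.08 and 7.26 TPM, against 4.38, 3.13 and 6.46 TPM (log2 fold change 1.01, standard error 0.242, adjusted p = 0.0141, edgeR). Both genes were higher in every E11.5 mutant than in any E10.5 mutant. Over 25 refits with another setting or without 1 library, *Lef1* was called in 25 and *Nkd2* in 23. The call of *Nkd2* was lost without E10.5 mutant replicate 1 (adjusted p = 0.0578) or 2 (adjusted p = 0.0564, both edgeR). In controls *Lef1* had a log2 fold change of 0.27 (adjusted p = 0.151) and *Nkd2* of 0.10 (adjusted p = 0.824), and for *Nkd2* the E11.5 controls, at 4.58 to 7.35 TPM, spanned most of the E10.5 controls, at 4.45 to 6.67 TPM. *Axin2* was called in mutants (log2 fold change 0.61 with standard error 0.177, adjusted p = 0.0332, edgeR), and in 17 of 25 such refits. Its groups overlapped on the TPM scale, at 16.64 to 21.95 TPM at E11.5 and 11.32 to 21.04 TPM at E10.5. Limma on log2(TPM + 1) gave 0.34 (adjusted p = 0.292).

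*Sp5* fell with stage in mutants, from very few reads. It had 5, 2, 2 and 3 counts in E11.5 mutants, against 24, 13 and 28 counts in mutants at E10.5 (log2 fold change -2.39, standard error 0.632, adjusted p = 0.0218, edgeR), and was not called without E10.5 mutant replicate 1 or 3 or E11.5 mutant replicate 2 or 3. In controls it had 1, 13 and 12 counts at E11.5, against 26, 14 and 25 counts at E10.5, with a log2 fold change of -0.95 (interval -2.26 to 0.36). *Apcdd1* was at 21.77, 18.13, 15.43 and 19.57 TPM in E11.5 mutants, against 11.13, 14.16 and 14.1 TPM in E10.5 mutants, just short of the threshold (log2 fold change 0.57, standard error 0.189, adjusted p = 0.0541, edgeR). *Tcf7l2* had intervals of -0.30 to 0.07 in mutants and -0.16 to 0.24 in controls, and *Tcf7* had intervals of -0.47 to 0.46 in mutants and -0.60 to 0.39 in controls. Leaving out a library changed several of these calls in mutants. The number called higher lay between 2 and 5, with the lowest reached without E10.5 mutant replicate 1 or 2, and the number called lower between 1 and 2.

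**Figure D4:**
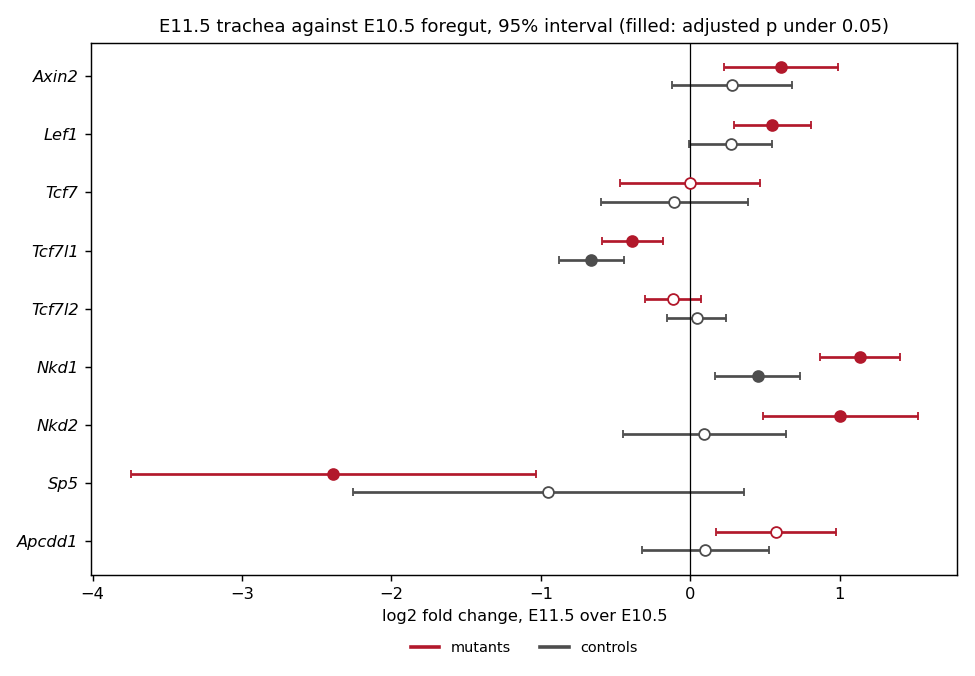
Log2 fold change of each gene at E11.5 over E10.5 (points) with its 95% interval (lines), in mutants and in controls; filled points had an adjusted p under 0.05. *Tcf7l1* lies below 0 and *Nkd1* above 0 in both genotypes, and *Nkd2* is at 1.01 in mutants and 0.10 in controls.

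Since the 4 TCF/LEF genes bind the same motif, their shares of a common sum were also set side by side, as a description chosen after the values were seen. *Lef1* made up 23.93, 18.65, 18.56 and 21.71% of the summed TPM of *Lef1*, *Tcf7*, *Tcf7l1* and *Tcf7l2* in E11.5 mutants, against 14.65, 14.36 and 12.65% in E11.5 controls. At E10.5 the share was 14.86, 11.7 and 12.21% in mutants, against 9.40, 8.97 and 10.16% in controls. The mutants lay above the controls at both stages. The sum itself was 107 to 130 TPM in E11.5 mutants, against 113 to 126 TPM in E11.5 controls, and 126 to 140 TPM in E10.5 mutants, against 132 to 154 TPM in E10.5 controls. *Tcf7l1* exceeded *Tcf7l2* in every E10.5 library, at ratios of 1.07 to 1.34. At E11.5 the ratio was 1.05, 0.912, 1.16 and 0.927 in mutants, against 0.802, 0.825 and 0.748 in controls.

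**Figure D5:**
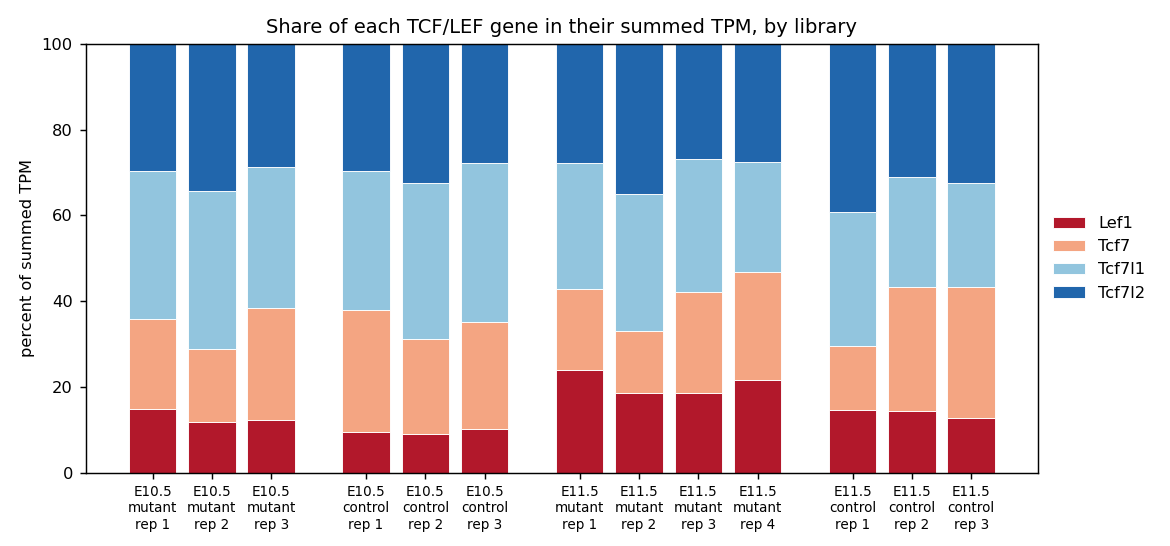
Share of each of the 4 TCF/LEF genes in their summed TPM (percent, stacked bars) in each of the 13 libraries. The lowest segment, *Lef1*, takes 18.56 to 23.93% in mutant tracheas and 12.65 to 14.65% in control tracheas.

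Over the 13 libraries, the genes most like *Axin2* in log2 CPM, by the root mean square difference of profiles centred on their means among 11454 genes, were *Rnf157* (0.156), *Tes* (0.159) and *1700020I14Rik* (0.163). Those most like *Lef1* were *Fbxl7* (0.151), *St3gal1* (0.156) and *Prrg3* (0.163). Within the set, *Nkd1* was the closest to *Lef1* (0.253, position 232 among all genes) and *Nkd2* the closest to *Axin2* (0.259, position 247). Of the genes of the set that were ranked, *Tcf7l1* was the farthest from *Lef1* (0.559, position 8973), followed by *Tcf7* (0.519, position 8049). *Tcf7l1* was also the farthest from *Axin2* (0.563, position 9461). These measures describe 13 libraries that differ in stage and genotype, so that differences between these groups enter the likeness, and they carry no test.

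No gene in the lists of the β-catenin destruction complex and of TCF cofactors was called between genotypes. The R-spondin gene *Rspo2* belongs to neither list and was called lower in mutants at both stages. Its log2 fold change was -1.89 in E10.5 foreguts and -2.69 in E11.5 tracheas (edgeR). Of 21 genes of β-catenin and its destruction complex, 20 were tested and 0 were called at either stage. At E11.5 their median log2 fold change was 0.21, against -0.01 for all genes tested, and 18 of the 20 were above 0, against 48.6% of all genes. At E10.5 the median was -0.02 and 8 of the 20 were above 0. Of 19 cofactors and corepressors of TCF, such as the Groucho-related Tle proteins, 0 were called between genotypes at either stage, with medians of 0.11 at E11.5 and -0.07 at E10.5.

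Other genes known to respond to β-catenin moved in both directions. At E11.5, 2 of 18 tested were called higher in mutants, *Msx2*, a homeobox factor that also responds to Bmp (log2 fold change 2.68, standard error 0.132, adjusted p = 5.39e-06, edgeR), and *Wif1*, a secreted inhibitor that binds Wnt (log2 fold change 3.18, standard error 0.410, adjusted p = 0.00353, edgeR). No gene of this list was called lower, and its median was 0.25. *Notum*, a secreted enzyme that inactivates Wnt, is named here after its values were seen. At E11.5 it was at -1.05 on the log2 scale without passing the test (SE 0.453, unadjusted p 0.0409, adjusted p = 0.241, edgeR). Its genotype effect differed between stages by -2.35 (standard error 1.002, adjusted p = 0.307, edgeR). In the E10.5 fit *Notum* did not pass the filter on low counts, so the E10.5 part of this difference rests on few reads. At E10.5, 1 of 17 was called, *Ccnd1*, which encodes cyclin D1 and was lower in mutants, with a log2 fold change of -0.43 and a standard error of 0.0642 (adjusted p = 0.0416, edgeR), while the list had a median of 0.23, against 0.03 for all genes. None of the 18 passed the test of a genotype effect that differed between stages.

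Between stages, 5 of the 18 responsive genes were called higher and 1 lower in mutants, against 8.12% and 7.4% of all genes, and 2 were called higher and 1 lower in controls, against 11.2% and 10.1% of all genes. *Sall4*, a zinc finger factor of early progenitors, fell in both, with log2 fold changes of -2.04 in mutants and -2.87 in controls (standard errors 0.293 and 0.334). *Tnfrsf19*, a receptor of the TNF family, rose by 1.19 in mutants and 0.82 in controls on the log2 scale. *Notum* was called higher in controls (log2 fold change 3.33, standard error 0.757, adjusted p = 0.00796, edgeR) and had 0.98 in mutants (adjusted p = 0.348). Both values rest on low counts at E10.5, where *Notum* did not pass the filter in the fit of that stage. *Wif1*, *Msx2*, *Ccnd1* and *Rnf43*, a ligase that removes Frizzled receptors, were called higher in mutants, at log2 fold changes of 4.07, 1.96, 0.51 and 0.81. Of the 20 genes of β-catenin and its destruction complex, 2 were called higher and 0 lower in mutants, *Lrp6*, a Wnt co-receptor (0.49 on the log2 scale, adjusted p = 0.00835), and *Amer1* (0.40, adjusted p = 0.0333, both edgeR), whereas in controls 1 was called higher and 4 lower. Of the 19 cofactors, 1 was called higher and 0 lower in mutants, *Hic1* (1.15, adjusted p = 0.0128, edgeR). In controls 2 cofactors were called higher, with *Tle2* at 2.14 (adjusted p = 0.00492), and 5 lower, with *Aes* at -0.62 (adjusted p = 0.00214), *Hipk2* at -0.70 (adjusted p = 0.00792) and *Tle3* at -0.53 (adjusted p = 0.0100, all edgeR).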

How the data were processed

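The 13 libraries were prepared with Nextera XT after amplification of the RNA with Ovation v2, and sequenced from 1 end over 75 bases. According to the study's methods, the authors trimmed reads with BBDuk and used Bowtie2 against mm10 under RSEM (1.3.0 in the submitters' processing notes). The sources used here do not give the gene annotation. The estimated counts were deposited by the authors as whole numbers per gene, without normalization. The TPM values were computed by the authors with RSEM from the same reads and scaled to transcript length and library. Both kinds of table held 32793 genes and were read in full, and 0 columns of samples were left unused.

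Counts were tested with edgeR 4.0.16 in R 4.3.3 (filterByExpr with a minimum count of 10, TMM factors, quasi-likelihood test, Benjamini-Hochberg adjustment over every gene in the fit). Mutants were set against controls in a fit for each stage, and stages and the interaction were tested in 1 fit of 13 libraries. A gene was called at an adjusted p under 0.05. CPM uses TMM factors fitted within a stage. Standard errors are the fold change over the square root of F. Pathway and marker lists were described by counts and medians, with no test of a list. The genes, lists and tests were chosen with earlier results of these data known. Named from the pathway lists were called members, up to 4 a list and comparison by adjusted p. Likeness used genes with an average log2 CPM of at least 2. The fit was tested on simulated counts. Alternatives were other scaling factors and filters, DESeq2 1.42.0, the likelihood ratio test, limma 3.58.1 (voom, or log2 TPM with a pseudocount of 1 or 0.1), sex (*Xist* above 100 CPM), all libraries or 1 genotype in a fit, a replicate block, changed thresholds, and the omission of each library in turn. Sequence windows and gene positions are from RefSeq and GENCODE M21 on GRCm38.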

Additional observations from a re-analysis of the deposited data

Results flagged for a closer look

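In a group of 4 samples, a value can be set against the spread of the other 3. Of 18 values examined in this way in the mutant tracheas, the CPM and the TPM of the 9 genes, 1 stood apart. *Tcf7l2* had 79.8 CPM in mutant trachea replicate 2, far from the other 3 mutants at 72.2, 72.4 and 71.1 CPM. This is the mutant with the most cardiac and the most epithelial RNA, whose part in the value was not tested. About 1 in 20 such groups is expected to show a value of this kind by chance.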

How the results depend on the processing

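Of 994 fold changes recomputed under alternatives, 914 kept their direction and side of the threshold, 39 lost a call, 9 gained one and 32, none of them called, changed sign. *Tcf7l1* between control stages and *Lef1* and *Nkd1* between mutant stages kept an adjusted p under 0.05 in every refit, though a required log2 fold change of at least 1 leaves out *Tcf7l1* and *Lef1*. Scaling moved the median of all genes by under 0.1 (log2). The causes were not tested.

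Between genotypes, the number called higher at E10.5 was 1 at an unadjusted p under 0.05 and 0 otherwise. At E11.5, where 2 were called higher, the number was 0 on log2(TPM + 1), on log2(TPM + 0.1), with the replicate block and with a log2 fold change of at least 1 required, 4 at an unadjusted p, and 0 to 2 when a library was left out. Between control stages, 0 were called higher without a filter on low counts, 0 higher and 0 lower with the fold change required, and 0 to 1 higher when a library was left out. Between mutant stages, 1 was called lower with at least 10 counts in every library, on both log2 TPM scales and with the replicate block, 2 higher and 1 lower with the fold change required, and 2 to 5 higher and 1 to 2 lower when a library was left out. In the interaction, 1 was called with DESeq2 and 2 had an unadjusted p under 0.05.

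The labels do not say whether samples with the same replicate number were paired. Same-numbered mutants and controls deviated together with correlations across genes of 0.031, 0.254 and 0.184 at E10.5 and -0.074, -0.078 and 0.223 at E11.5. Between different numbers the correlations ran from -0.249 to 0.063 at E10.5 and from -0.302 to 0.233 at E11.5. Pairing was thus neither established nor excluded, least of all at E10.5. With the replicate block, the adjusted p at E11.5 was 0.0587 for *Nkd1* and 0.102 for *Lef1*, and the log2 fold change of *Tcf7l2* at E10.5 was 0.0025.

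None of the fold changes that changed sign was called on either side. At E10.5 *Axin2* had 0.0025 on log2(TPM + 1), 0.0028 on log2(TPM + 0.1) and 0.2587 with sex as a covariate, with which *Nkd2* had 0.1587. That fit rests on the 1 mutant of E10.5 without *Xist*. *Tcf7l2* at E10.5 had 0.0207 with upper-quartile factors, 0.0076 with at least 10 counts in every library and 0.0006 with limma-voom. Between control stages *Tcf7l2* had -0.0184 and -0.0189 on the 2 log2 TPM scales, and between mutant stages *Tcf7* had 0.0051 with upper-quartile factors. When a library was left out, the E10.5 fold change ran from -0.2639 to 0.1141 for *Axin2*, -0.0667 to 0.0878 for *Tcf7l2*, -0.0138 to 0.1649 for *Nkd1*, -0.1503 to 0.3084 for *Sp5* and -0.3218 to 0.0737 for *Apcdd1*. Between control stages it ran from -0.2903 to 0.1722 for *Tcf7*, -0.0198 to 0.1196 for *Tcf7l2*, -0.0504 to 0.3085 for *Nkd2* and -0.0759 to 0.338 for *Apcdd1*. For *Tcf7* it ran from -0.0972 to 0.0761 between mutant stages and from -0.1765 to 0.2813 in the interaction. *Sp5*, with 1 to 28 reads a library, is the gene most limited by depth.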

Other observations

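For several of these genes the deposited counts and TPM values did not move together between libraries. RSEM divides counts by the length of the isoforms it assigns reads to, so that counts per unit of TPM, here scaled within a library to all genes and within a gene to its mean, follow the estimated transcript length. For *Tcf7* this ratio ran from 0.7585 in E10.5 mutant foregut replicate 3 to 1.40 in E11.5 mutant trachea replicate 2, and its spread was at the 98.4th percentile of 11948 genes. *Apcdd1*, with 0.7715 to 1.119, was at the 95.6th percentile. *Tcf7l1* hardly varied, with 0.9979 to 1.002, and *Lef1* and *Nkd1* lay between 0.970 and 1.02. Even so, the E10.5 groups of *Lef1* overlapped in TPM but not in CPM, and both E11.5 calls were absent on log2(TPM + 1). TPM also depends on the other RNA of a library. In E10.5 control replicate 3, the control with the most *Lef1* TPM, erythroid markers summed to 5532.77 TPM, against 57240.23 and 65706.13 TPM in control replicates 1 and 2. The part of this in the overlap was not tested.

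*Axin2* differed by stage in this ratio. It was 1.02 to 1.13 in the 7 tracheas and 0.8655 to 0.9535 in the 6 foreguts, with no overlap, and at E10.5 it was also lower in every mutant, at 0.8655 to 0.920, than in any control, at 0.943 to 0.9535. The change of *Axin2* with stage in mutants was accordingly 0.61 on the log2 scale in counts and 0.34 on log2(TPM + 1). The spread of its ratio was at the 93.7th percentile of 11948 genes. How many of all genes separate by stage or by genotype in this ratio was not counted. In CPM, mutants and controls did not overlap at E10.5 for 25% of all genes tested. Whether the isoforms of *Axin2* or only the assignment of reads among them differed was not tested. Reads over single exons or junctions would be needed, and these were not analysed here.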
